A study of Mus musculus with 2 samples.

Results

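The 10 differentiation keratins considered here were read across the repair of a corneal epithelial wound: Krt12 of the cornea, Krt4 and Krt13 of moist mucosa, Krt1, Krt10 and Krt2 of epidermis, and Krt23, Krt24, Krt78 and Krt80, less studied keratins, of which Krt24, Krt78 and Krt80 have been linked to differentiating layers. They were chosen by gene symbol: a row of the deposited table counted as a member when the platform annotation gave it 1 of these 10 names, out of 30698 genes with a row of their own. Each of the 10 had exactly 1 row, and 0 of these rows named a further gene. Injured epithelium came from C57BL/6 mice of either sex, 8 weeks of age, whose corneal epithelium had been removed in full depth as far as the limbus with a rust ring tool of 0.5 mm and left to heal for about 48 hours, when 10% of the wound was still open. Uninjured epithelium came from the fellow eyes of such mice, under the same anaesthesia and with no other treatment named. There was 1 array for injured and 1 for uninjured epithelium, and the labels used here do not say how many mice each array stands for. With 1 array per group no test was possible and no p-value is given: every difference below describes these 2 arrays, and a gene is called higher or lower at a difference of 1 or more on the log2 scale, which is 2-fold.

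Keratins are the intermediate filament proteins of epithelial cells and assemble as pairs of an acidic type I and a basic type II chain. Which pair a cell makes depends on the epithelium and on how far the cell has moved from the basal layer: Krt5 and Krt14 fill basal cells, Krt1 and Krt10 replace them in the suprabasal epidermis, and Krt4 and Krt13 do so in moist stratified mucosa such as the oesophagus and the conjunctiva. The cornea is set apart by the type I chain Krt12, which in mice pairs with Krt5. In humans, mutations of KRT12 cause Meesmann corneal dystrophy, in which the epithelium is fragile. Of the members, Krt12, Krt10, Krt13, Krt23 and Krt24 are type I chains of the gene cluster on chromosome 11, and Krt1, Krt2, Krt4, Krt78 and Krt80 are type II chains of the cluster on chromosome 15.

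Of the 10 keratins 3, namely Krt12, Krt78 and Krt80, were at least 2-fold lower in the injured epithelium, and 0 were at least 2-fold higher. The mucosal pair Krt4 and Krt13 and the epidermal pair Krt1 and Krt10 differed by less than 0.30 on the log2 scale, and so did Krt23 and Krt24. Among all 19512 genes above the low-signal level, which is the median of the table at a log2 intensity of 5.44, 3.92% were at least 2-fold lower and 4.14% at least 2-fold higher. Krt2 lay below that level in both arrays, so 9 of the 10 keratins were measured by this rule. The median log2 difference, injured minus uninjured, was -0.05 over all 10 keratins and -0.11 over the 9 measured, against 0.06 over all measured genes. At 4-fold, Krt12 alone was lower, where 0.779% of all measured genes were lower and 0.707% higher, and at 1.5-fold the count was again 3 lower and 0 higher, where 8.76% were lower and 11.1% higher. The median of the keratins lay near that of all genes while 3 keratins stood far below it.

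**Figure D1:**
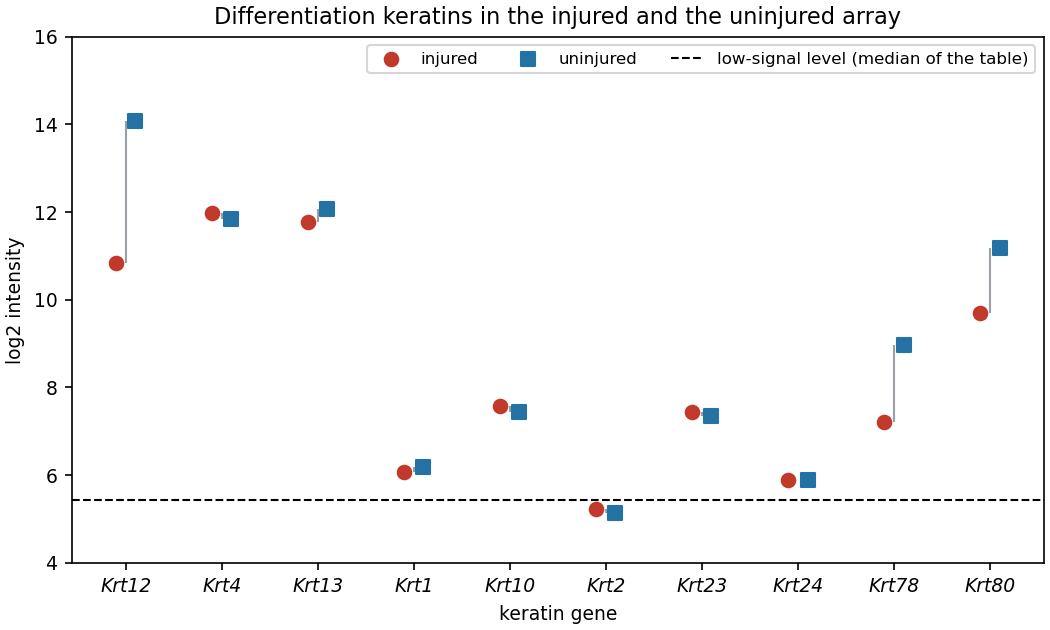
Log2 intensity of the 10 differentiation keratins (x axis) in the injured array (red circles) and the uninjured array (blue squares), 1 array each, joined by a grey line, with the low-signal level of 5.44 dashed. Krt12, Krt78 and Krt80 are lower in the injured array, and for the other 7 keratins the symbols nearly meet.

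Krt12, the keratin that marks the corneal epithelium, had a log2 intensity of 10.85 in injured and 14.07 in uninjured epithelium. The difference was -3.22, or 9.34-fold, so that the injured signal was 10.7% of the uninjured signal. Only 41 of the 19512 measured genes had a more negative difference. Krt12 remained far above the low-signal level in the injured array. Its uninjured value was the highest of all 65952 rows of that array, where 4 rows reached 14 or more. Without a saturation call, a true level above this value could not have been seen, so the difference may be understated. In RNA from a whole tissue, fewer cells that make Krt12 and less Krt12 RNA per cell cannot be told apart.

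Beside the members, 11 markers of corneal epithelium were read, of which 9 had a row of their own. This list holds Krt12 and was chosen with earlier results of these data known. Its counts therefore describe the list and are no independent check of the tissue or of the Krt12 difference. All 9 were above the low-signal level, and their uninjured log2 intensities lay between 10.54 and 14.07. Of these, 7 were at least 2-fold lower in the injured array and 0 higher, with a median difference of -3.22, the value of Krt12 itself. Among all measured genes 3.92% were at least 2-fold lower. The lowest of the 9 markers were the secreted or membrane-bound Ly6-type proteins Lypd2 (-7.49) and Slurp1 (-6.61), the water channel Aqp5 (-3.87) and the retinaldehyde dehydrogenase Aldh1a1 (-3.30). The injured values of Lypd2 (5.99) and Slurp1 (6.61) were dim, within the range of hair and inner root sheath keratins in that array (up to 6.99). The sizes of their differences are therefore uncertain. The summed linear signal of the 9 markers was 19509 in injured and 74887 in uninjured epithelium. Of these sums Krt12 gave 1847 in injured and 17238 in uninjured epithelium. The part that the cellular make-up of the samples has in the Krt12 difference was not tested.

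A long non-coding RNA gene, A830036E02Rik, overlaps Krt12 on the genome. RefSeq places Krt12 at chr11:99415664-99422593 and A830036E02Rik at chr11:99417243-99423098 in GRCm38.p6. Its own row had a log2 intensity of 5.80 in injured and 8.56 in uninjured epithelium, a difference of -2.75 (6.75-fold). This gene was looked up for its overlap with Krt12 and lies outside the rule for named genes. The gene table used gives no strand and the array's probes were not used here, so the RNAs that the 2 rows measure cannot be told apart. By the rule for named genes, 3 further genes had a log2 difference near that of Krt12 over these 2 arrays: the hair keratin-associated protein gene Krtap7-1 (-3.23), the sulfotransferase gene Chst9 (-3.25) and the mechanosensitive channel gene Piezo2 (-3.25). The injured values of Krtap7-1 (4.84) and Piezo2 (5.34) lay below the low-signal level and that of Chst9 (5.58) just above it, so the sizes of these differences rest on injured values near or below that level and their nearness to Krt12 cannot be ranked.

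Krt78, a type II keratin found in differentiated layers of mouse stratified epithelia, had a log2 intensity of 7.21 in injured and 8.96 in uninjured epithelium. The difference was -1.75 (3.36-fold), and 215 measured genes had a more negative one. Krt80, a type II keratin that in human tissues appears late in differentiation and near desmosomes, had 9.69 in injured and 11.19 in uninjured epithelium. Its difference of -1.50 (2.82-fold) was exceeded downwards by 313 genes. Both keratins were above the low-signal level in either array. The injured value of Krt78 was nevertheless dim, just above the highest hair and inner root sheath keratin of that array (6.99). The size of the Krt78 difference is therefore less certain. Krt78 and Krt80 sit far apart in the type II cluster, Krt80 at chr15:101348315-101370162 and Krt78 at chr15:101946001-101996624 in GRCm38.p6. The other members without a settled place in cornea, mucosa or epidermis did not share this difference. Krt23 had 7.44 in injured and 7.34 in uninjured epithelium, and Krt24 had 5.90 in injured and 5.89 in uninjured epithelium. The values of Krt24 were close to the low-signal level, where a difference could be hidden. Krt23 was also dim, and no detection call was used.

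The mucosal pair was bright in both arrays. Krt4, the type II chain of the pair, had 11.98 in injured and 11.85 in uninjured epithelium, a difference of 0.14. Krt13, its type I partner, had 11.77 in injured and 12.06 in uninjured epithelium, a difference of -0.29. The spread between rows of the same gene gives a yardstick within these arrays: over 542 rows of 256 genes the SD of the log2 difference was 0.242. Krt4 differed by less than this SD and Krt13 by slightly more. Of the 6 measured keratins below 2-fold, Krt13 was the only one beyond it. This SD holds no variation between animals.

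Krt4 and Krt13 also mark the conjunctiva, which borders the limbus, so a list of 13 conjunctival and goblet cell markers that holds them was read beside them. Without Krt4 and Krt13, which were left out after their values were seen, 9 of the other 11 genes were measured, with 2 at least 2-fold higher (Krt7 and Krt19), 1 lower and a median difference of 0.15. The gel-forming goblet mucin Muc5ac was lower, with 5.81 in injured and 7.07 in uninjured epithelium (-1.26). Gcnt3 and Clca1, of mucous cells, lay below the low-signal level in both arrays. The summed linear signal of the 11 genes was 5485 in injured and 2842 in uninjured epithelium, and that of all 13 was 13023 in injured and 10790 in uninjured epithelium. Krt7 (10.56 in injured and 9.22 in uninjured epithelium) and Krt19 (11.68 in injured and 10.58 in uninjured epithelium) were by far the brightest of the 11 genes. The sum of the 11 therefore mainly follows Krt7 and Krt19, which are also read below as keratins of simple epithelia. How much of the Krt4 and Krt13 signal came from conjunctival cells was not tested.

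The epidermal keratins Krt10 and Krt1 were close to level between the arrays, and Krt2 lay below the low-signal level. Krt10, the type I chain of the suprabasal epidermis, had 7.58 in injured and 7.44 in uninjured epithelium, a difference of 0.15. Krt1, its type II partner, had 6.08 in injured and 6.19 in uninjured epithelium, a difference of -0.11. Hair and inner root sheath keratins reached 6.99 in injured and 7.36 in uninjured epithelium, so Krt1 lay within their range and Krt10 just above it. Without a detection call, level values this dim do not show whether Krt1 and Krt10 were expressed. Krt2, a type II keratin of the upper epidermal layers, had 5.24 in injured and 5.14 in uninjured epithelium, both below the low-signal level, so no statement on its expression can be made. The wider list of eyelid epidermis and hair markers, which holds Krt1, Krt10 and Krt2, had 9 of 11 genes measured and 0 past 2-fold in either direction. Its summed linear signal was 924 in injured and 931 in uninjured epithelium. The cornified envelope protein Lor had 6.76 in injured and 6.83 in uninjured epithelium, and the filament-bundling protein Flg had 7.51 in injured and 7.67 in uninjured epithelium.

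**Figure D2:**
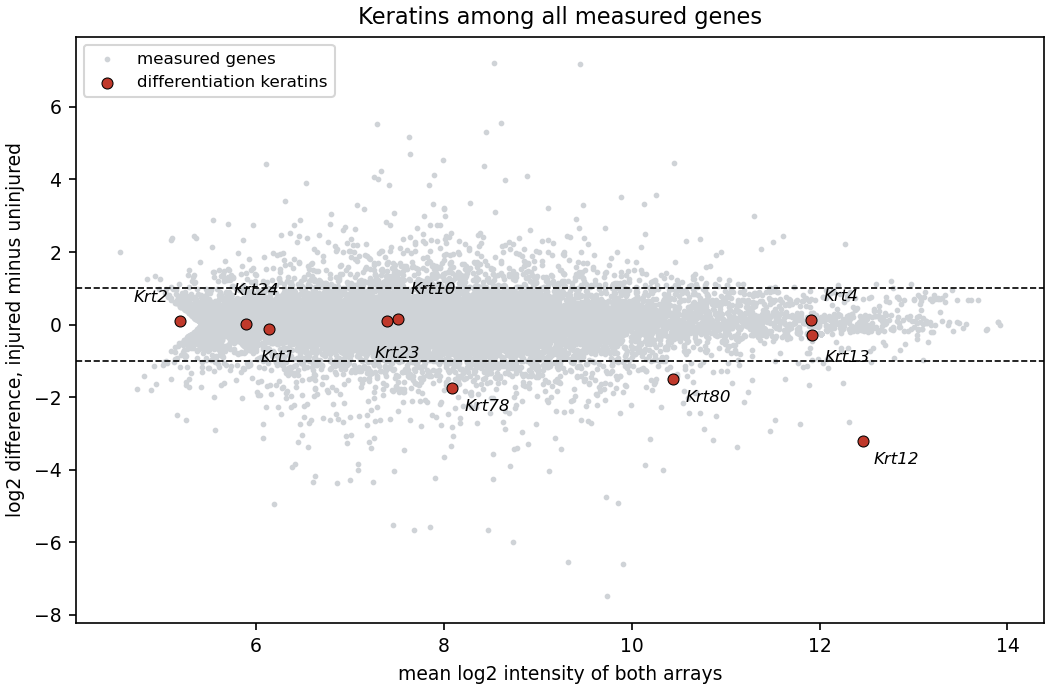
Mean log2 intensity of both arrays (x axis) against the log2 difference, injured minus uninjured (y axis), for the 19512 measured genes (grey) and the 10 keratins (red, Krt2 lying below the low-signal level). The dashed lines mark 2-fold: Krt12, Krt78 and Krt80 lie below the lower line, and the other 7 keratins lie between the lines.

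The starts of the member genes are shown for the keratin with the largest difference (Krt12), for a further lower one (Krt78), for the direct neighbour of Krt12 in the cluster (Krt10) and for a bright keratin below 2-fold (Krt13). RefSeq promoter windows of GRCm38.p6 were matched for 7 of the 10 members, and those of Krt1, Krt4 and Krt80 were not used here. Each line gives the 250 bases before a start that the promoter table lists, 5′ to 3′ on the gene's strand. The windows of Krt12, Krt78 and Krt10 lie inside the span that RefSeq gives the gene, so the table's start is not the outermost end of that span, and which start these tissues use is not known here. For Krt13 the table lists 2 starts, and the window of the upstream one is printed. Capitals mark TATAAA on the gene's strand and CACCC on either strand (read as GGGTG on the other), the core of the sites that Krüppel-like factors bind.
Krt12 (chr11:99422260-99422509, minus strand): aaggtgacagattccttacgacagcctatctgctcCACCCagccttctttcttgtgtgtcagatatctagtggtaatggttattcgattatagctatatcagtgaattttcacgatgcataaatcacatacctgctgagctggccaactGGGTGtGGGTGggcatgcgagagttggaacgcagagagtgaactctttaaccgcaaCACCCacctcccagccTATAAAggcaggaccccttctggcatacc
Krt78 (chr15:101954288-101954537, minus strand): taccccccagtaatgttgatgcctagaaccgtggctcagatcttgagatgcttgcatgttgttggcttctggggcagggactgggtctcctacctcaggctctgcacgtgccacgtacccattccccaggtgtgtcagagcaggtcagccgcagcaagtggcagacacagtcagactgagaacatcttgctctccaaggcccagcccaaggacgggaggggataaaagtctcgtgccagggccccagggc
Krt10 (chr11:99389365-99389614, minus strand): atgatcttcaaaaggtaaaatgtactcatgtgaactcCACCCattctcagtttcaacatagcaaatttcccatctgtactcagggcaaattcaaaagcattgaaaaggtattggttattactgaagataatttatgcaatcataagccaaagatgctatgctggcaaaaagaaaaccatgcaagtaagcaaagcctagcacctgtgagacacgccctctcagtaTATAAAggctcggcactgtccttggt
Krt13 (chr11:100121567-100121816, minus strand): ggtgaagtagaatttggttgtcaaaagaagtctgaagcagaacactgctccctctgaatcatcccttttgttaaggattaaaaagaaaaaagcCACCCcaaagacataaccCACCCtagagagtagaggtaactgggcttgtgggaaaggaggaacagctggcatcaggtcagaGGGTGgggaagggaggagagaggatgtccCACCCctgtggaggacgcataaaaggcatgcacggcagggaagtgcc
Krt12 held TATAAA 29 bases before its start and CACCC at 4 places, and Krt10 held TATAAA 26 bases before its start and CACCC at 1 place. Krt13 held CACCC at 4 places without TATAAA, and Krt78 held neither. The other Krt13 window, inside the gene, held CACCC at 1 place and the AP-1 motif TGANTCA at 2 places. Of all 32851 promoter windows of this length 7.59% held TATAAA and 52.0% held CACCC, with 4 or more CACCC matches in 2.14%. The cut of 4 equals the count in Krt12 and Krt13, so it does not measure how unusual the members are. Among the members not printed, Krt2 and Krt24 held CACCC at 1 place each and Krt23 at 0. The AP-1 motif TGANTCA (both strands), found in 6.75% of all windows, had 0 matches in Krt12, Krt78 and Krt10 and 1 in the printed Krt13 window. No matches of different motifs overlapped in these 4 windows. These matches describe letters in a window and show no binding.

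Measured keratin genes next to Krt12, Krt78 and Krt80 were not lower in the injured epithelium. On chromosome 11, Krt12 lies between Krt10, with a difference of 0.15, and Krt20, which was below the low-signal level in both arrays. On chromosome 15, Krt78 lies between Krt79 (0.05) and Krt8, the type II chain of simple epithelia, which was higher by 1.52. Krt80 lies beside Krt7, another simple-epithelium keratin, which was higher by 1.34. Of the 54 keratin genes that RefSeq lists on these chromosomes 49 had a row of their own and 42 were measured. Leaving out the members, 33 keratins were measured, of which 7 were at least 2-fold higher and 1, the basal keratin Krt15 (-1.20), was lower. Of the 4 keratins that were lower in the injured epithelium 3 were members, and the 7 that were higher were not. The members were chosen with earlier results of these data known, so this split is a description of the grouping. Among all 19512 measured genes 3.92% were at least 2-fold lower and 4.14% at least 2-fold higher.

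**Figure D3:**
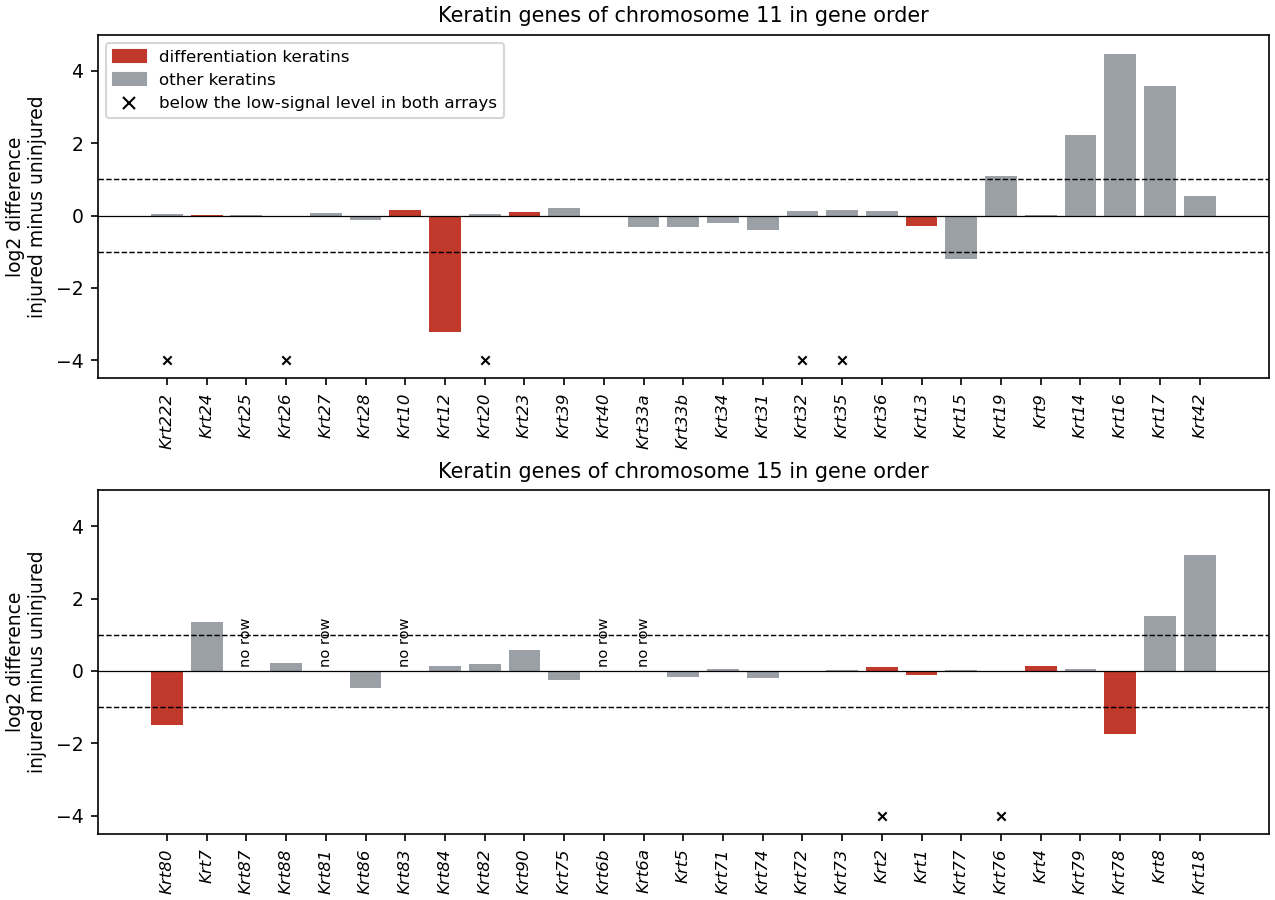
Log2 difference, injured minus uninjured (bars), of the keratin genes on chromosome 11 (top) and chromosome 15 (bottom) in their order along the chromosome, with the differentiation keratins in red, other keratins in grey, 2-fold dashed, and crosses for genes below the low-signal level in both arrays. Krt12 is the lowest bar on chromosome 11 and Krt78 the lowest on chromosome 15, while Krt16 and Krt18 are the highest bars of these panels.

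Keratins of the basal layer and of wounded epithelium were read for comparison. Of 8 such genes 6 were measured, 3 passed 2-fold upwards and 1 downwards, and the median difference was 1.03. The wound keratin Krt16 had 12.67 in injured and 8.22 in uninjured epithelium (4.45), and Krt17 was higher by 3.58 and the basal type I chain Krt14 by 2.23. Krt5, the type II partner that Krt12 shares with Krt14, had 13.69 in injured and 13.85 in uninjured epithelium, a difference of -0.16. The row that Krt6a and Krt6b share had 13.51 in injured and 13.52 in uninjured epithelium. The values of Krt5 and of this row lie near the highest value of either array (14.07). Without a saturation call, a difference could be hidden there. Among 5 keratins of simple epithelia 4 were measured and all 4 passed 2-fold upwards (median 1.43): Krt18 by 3.22, Krt8 by 1.52, Krt7 by 1.34 and Krt19 by 1.11. With 1 array per group the differences between these lists and the members carry no test.

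Plakins and keratin anchors were mostly below 2-fold. Of 11 plakins and anchors 9 were measured, with 1 higher, 1 lower and a median of -0.29. The desmosomal plakin Dsp, which ties filaments to the plaque, had 12.88 in injured and 13.18 in uninjured epithelium. Envoplakin, Evpl, of the cornified envelope, was lower by a difference of -1.28, and the plaque protein Pkp2 was higher by 1.69. Of 8 genes for filament-bundling and related S100-fused proteins 4 were measured and 0 passed 2-fold.

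Of 26 transcription factors of epithelial differentiation 24 were measured, with 2 at least 2-fold higher, 3 lower and a median of -0.35. Pax6, the eye transcription factor that acts on the Krt12 promoter, had 9.31 in injured and 10.63 in uninjured epithelium (-1.32). Klf4, a Krüppel-like factor needed for the mouse corneal epithelium, had 10.31 in injured and 11.58 in uninjured epithelium (-1.27), and Prdm1, a repressor active in terminal epidermal differentiation, was lower (-1.76). Higher were the homeobox factor Barx2 (1.56) and Tfap2b (1.96), and Trp63, the transcription factor of stratified epithelia, differed by -0.36. Genes of the spinous and granular layers went both ways, with 3 of 16 higher, 3 lower and a median of -0.22. The lower Evpl belongs to this list as well as to the plakins, so it is counted in both. The keratinocyte differentiation gene Krtdap was higher by 3.89 with an uninjured value of 4.59, below the low-signal level, whereas the desmosomal cadherins Dsg1a (-2.87) and Dsg1b (-2.15), near-identical copies whose signals may mix, were lower.

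**Figure D4:**
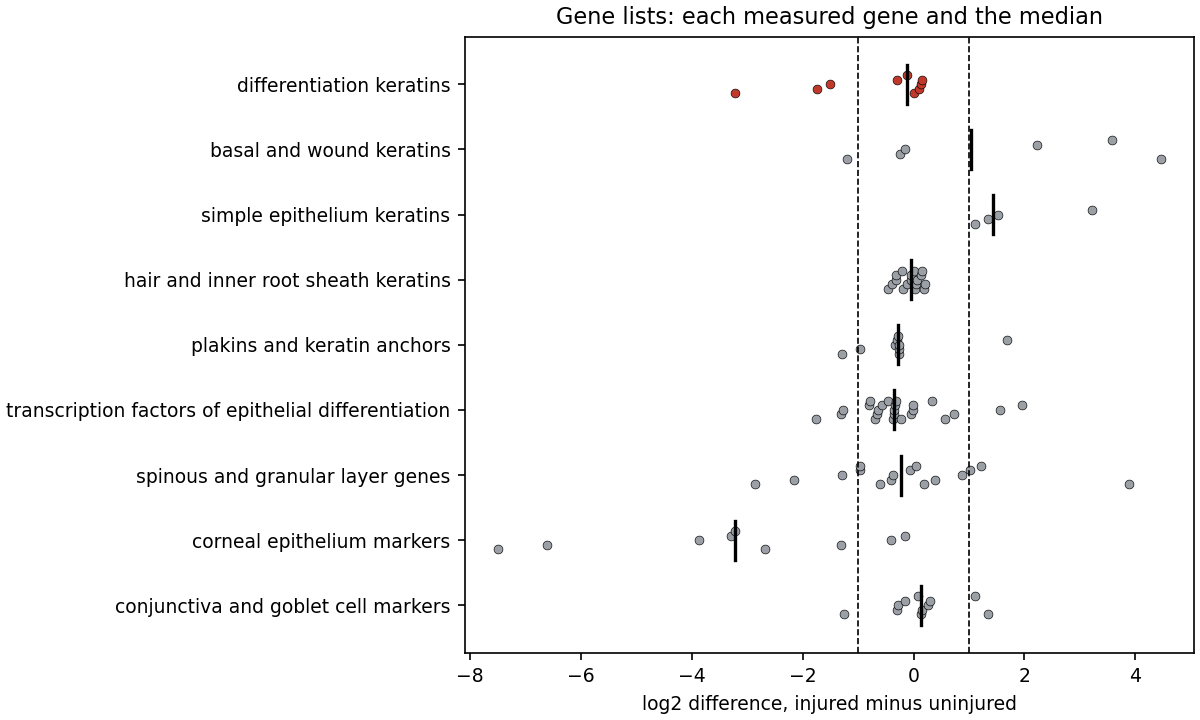
Log2 difference, injured minus uninjured (x axis), of each measured gene (points) in 9 gene lists, with the median as a black bar, 2-fold dashed and the differentiation keratins in red at the top. The median of the differentiation keratins is -0.11, that of the simple epithelium keratins 1.43 and that of the corneal epithelium markers -3.22. The corneal epithelium markers include Krt12, whose value is their median, and the conjunctiva and goblet cell markers include Krt4 and Krt13.

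Markers of cells outside the epithelium were read beside the keratins. Of 10 stromal markers 7 were measured, 1 was lower (Dcn, -1.31) and 0 were higher, the keratocyte proteoglycans Kera and Lum lay below the low-signal level in both arrays, and the summed linear signal was 722 in injured and 737 in uninjured epithelium. Of 12 leukocyte markers 9 were measured, S100a9 was higher (1.89) and Itgam was lower (-1.55), with a median of 0.21. Of all 12 leukocyte markers 11 had a difference above 0, among them Lyz2 (0.87), Fcer1g (0.49) and S100a8 (1.55, with both values below the low-signal level). The median difference of all measured genes was also above 0 (0.06), and some of the 11 were small, such as Ptprc (0.09) and Adgre1 (0.08). The count of signs therefore shows no gain of leukocyte signal by itself. The summed linear signal of the 12 markers was 1614 in injured and 2095 in uninjured epithelium, and without Itgam, left out after its value was seen, 1194 in injured and 867 in uninjured epithelium. The pan-leukocyte gene Ptprc and the macrophage gene Adgre1 also lay below the low-signal level in both arrays. Of 11 melanocyte, nerve and lens markers 7 were measured and 0 passed 2-fold, with sums of 591 in injured and 561 in uninjured epithelium. Their part in the keratin differences was not tested.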

How the data were processed

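Total RNA of 2 samples, 2 µg each, was amplified and labelled with biotin, per the labels' protocols. The deposited table holds log2 intensities from the authors, 65952 rows between 2.54 and 14.1. Agilent Feature Extraction 9.1 is named per the submitters' processing notes. The row identifiers, however, have the form of transcript clusters of another kind of array, so the role of that tool is unclear. No source used here gives the background correction, the summary of probes, the normalization or the genome build. The array medians differed by 0.0135, and values were kept as deposited. No detection or saturation call was used.

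Rows were named from the platform annotation, with symbols updated through RefSeq GRCm38.p6: 31254 rows carried 1 gene, 1492 several and 33206 none here. Rows naming several genes were used only for the row shared by Krt6a and Krt6b. A gene was measured when its brighter value reached the median of the table (5.44), which left out 11186 genes, and its row with the highest mean was used. A signal sum adds linear intensities over the listed genes that have a row of their own. Each row has its own probes, so a sum weights genes unequally and serves only to compare the 2 arrays.

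The members and lists were chosen with earlier results of these data known. Genes named are all members, up to 4 genes past 2-fold per list, a fixed set (Krt5, Krt14 to Krt19, Krt6a, Krt6b, Krt8, Pax6, Klf4, Trp63, Dsp and Flg) and the 3 genes nearest to Krt12 in difference. Further genes, such as A830036E02Rik, Lor, Krt79, Lyz2, Fcer1g, Ptprc and markers below the low-signal level, were named after their values were seen. With 1 array per group no model was fitted across genes, and the number of arrays limits the precision. The calling step was run on simulated data with little noise and changes larger than the 2-fold cut. This checks the code and does not show how reliable the calls are in these arrays. Python 3.11.15, numpy 2.4.6, pandas 2.3.3, statsmodels 0.14.6 and matplotlib 3.10.9 were used.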

Additional observations from a re-analysis of the deposited data

How the results depend on the processing

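The count of 3 keratins at least 2-fold lower and 0 at least 2-fold higher was the same under arrays set to equal medians or to equal 75th percentiles, quantile normalization, loess smoothing (span 0.3), the addition of 11.8 to the linear intensities, the 2 other choices of row per gene, the 3 other low-signal filters and a threshold of 1.5-fold. At 4-fold, 1 keratin (Krt12) was lower, by construction of the threshold. The choice of row cannot change a member, since each has 1 row, and a filter can drop a member but does not alter its difference. The arrays differed by only 0.0135 in median and 0.0051 in 75th percentile, too little for these scalings to change a call of a member. The unchanged count under these settings is therefore no evidence of robustness. Over the 7 settings that alter values or rows, the log2 difference of Krt12 ranged from -3.27 to -3.20, of Krt78 from -1.76 to -1.67 and of Krt80 from -1.54 to -1.48. Krt24, below 2-fold, ranged from -0.03 to 0.01, so its sign is not settled. Of 1071 recomputed differences of 153 genes 0 turned round from a called direction, and 7 moved by more than 0.242, each smaller in size and each under the added constant. The median over all measured genes was 0.06 as deposited and lay between 0.03 (loess) and 0.05 under the other scalings. No paired analysis was possible because each group has 1 array. Background and probe summary could not be varied, and no depth or detection limit is known for the dim keratins Krt1, Krt2, Krt10, Krt23 and Krt24. The same holds for the dim injured value of Krt78.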

Other observations

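Hair and inner root sheath keratins, which build hair and its sheath, were read as further members of the same clusters. Of 24 such genes 17 were measured and 0 were at least 2-fold apart, with a median log2 difference of -0.04 and a range from -0.46 (Krt86) to 0.21 (Krt39). Their injured log2 intensities reached 6.99 at most and their uninjured ones 7.36. The remaining keratins included Krt90, with 8.51 in injured and 7.92 in uninjured epithelium (0.59), and Krt42, with 7.11 in injured and 6.56 in uninjured epithelium (0.55), and 0 of the 5 measured passed 2-fold.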
